A study of Mus musculus with 6 samples.

Results

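The 40 genes described here encode parts of the machinery that copies DNA and divides the cell, and all 40 of the 40 listed had at least 10 reads summed over the 6 libraries, out of 14641 such genes among 23284 in the count files. They were taken by gene symbol and placed in an S phase class of 19 genes and a G2/M class of 21 genes by textbook role. RNA came from intestine, jejunum and ileum together, of male mice aged 8 weeks that were fasted overnight and then refed for 6 h. The groups were SHP-KO mice, which lack the small heterodimer partner SHP, and wild-type (WT) mice, with 3 libraries each. SHP is an orphan nuclear receptor that acts as a corepressor and is encoded by Nr0b2. The labels give no allele, no Cre and no strain, and nothing in them says that each library is its own animal. Each p-value below thus reflects counting error and the scatter among 3 libraries a group, which may be technical.

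The epithelium of the small intestine renews itself from crypts, where stem cells and their transit amplifying daughters divide before they move onto the villus and stop. A dividing cell loads the Mcm helicase onto replication origins in G1, copies its DNA in S phase, and then builds cyclin B and Cdk1 activity to enter mitosis. E2F factors drive the transcription of S phase genes, whereas G2/M genes are driven later by the MuvB complex with B-Myb and FoxM1, which reads a short element called the CHR, often beside CCAAT boxes bound by NF-Y. Germinal centres of Peyer's patches, where B cells multiply, are another site of division in the gut wall.

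Promoter stretches of 6 members are shown first because they hold letters of elements known from S phase and G2/M promoters, and because they set genes that fell beside genes that rose in SHP-KO libraries. Each is the 150 bases before the gene start on the gene's own strand, from RefSeq on GRCm38.p6. Capitals mark CHR letters (TTTGAA or TTCGAA), the CCAAT box (CCAAT) and E2F letters (TTCCCGC or TTGGCGC), each searched on both strands. The first 3 are G2/M members and the last 3 are S phase members.
Cdk1, chr10:69352913-69353062, minus strand, lower in SHP-KO: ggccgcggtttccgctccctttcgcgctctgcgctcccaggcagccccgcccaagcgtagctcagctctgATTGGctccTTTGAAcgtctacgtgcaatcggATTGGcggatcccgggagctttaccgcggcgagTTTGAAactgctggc
Top2a, chr11:99024190-99024339, minus strand, lower in SHP-KO: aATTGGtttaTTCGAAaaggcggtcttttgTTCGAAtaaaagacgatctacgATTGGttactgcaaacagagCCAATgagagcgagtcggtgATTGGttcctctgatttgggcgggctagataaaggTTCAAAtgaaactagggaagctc
Plk1, chr7:122159285-122159434, plus strand, higher in SHP-KO: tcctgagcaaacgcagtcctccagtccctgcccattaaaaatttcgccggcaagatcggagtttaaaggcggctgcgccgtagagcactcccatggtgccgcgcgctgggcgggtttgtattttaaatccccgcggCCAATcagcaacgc
Mcm6, chr1:128359706-128359855, minus strand, lower in SHP-KO: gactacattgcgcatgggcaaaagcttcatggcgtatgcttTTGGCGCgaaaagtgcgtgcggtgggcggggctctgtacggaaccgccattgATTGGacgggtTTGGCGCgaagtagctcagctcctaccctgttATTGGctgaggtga
Mcm2, chr6:88898781-88898930, minus strand, higher in SHP-KO: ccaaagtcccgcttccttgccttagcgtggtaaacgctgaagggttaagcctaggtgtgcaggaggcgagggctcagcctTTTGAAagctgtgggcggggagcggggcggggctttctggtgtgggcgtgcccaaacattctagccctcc
Cdc6, chr11:98908001-98908150, plus strand, higher in SHP-KO: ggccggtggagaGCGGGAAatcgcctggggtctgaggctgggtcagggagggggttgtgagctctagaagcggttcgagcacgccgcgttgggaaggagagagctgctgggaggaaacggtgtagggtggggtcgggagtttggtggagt

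In these stretches the Cdk1 promoter held 2 CHR and 2 CCAAT matches and the Top2a promoter 3 and 4, the third Top2a CHR match being on the opposite strand (TTCAAA). The Plk1 stretch held 1 CCAAT match, and its CHR letters lay after the gene start. Mcm6 held 2 E2F matches, Cdc6 held 1 E2F match far from the start, and the Mcm2 stretch held 1 CHR match and none of the E2F letters.

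Over full windows of 250 bases before to 50 after the start, 33 of the 40 members matched a RefSeq entry. CHR letters stood in 13 of 17 G2/M members (76.5%) and in 3 of 16 S phase members (18.8%), against 16.4% of 8729 tested genes with a window. All 13 G2/M members with CHR letters also held a CCAAT box, a pairing found in 8.0% of the tested genes. E2F letters stood in 3 of 17 G2/M members (17.6%) and in 10 of 16 S phase members (62.5%), against 13.9% of the tested genes. The CCAAT box alone was common everywhere, at 88.2% of G2/M members, 62.5% of S phase members and 42.7% of the tested genes. Of all 27025 genes of the RefSeq table, whether or not tested here, 21.7% held CHR letters, 41.1% a CCAAT box and 7.79% E2F letters. These matches describe letters in a window and do not show that a factor bound there.

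**Figure D1:**
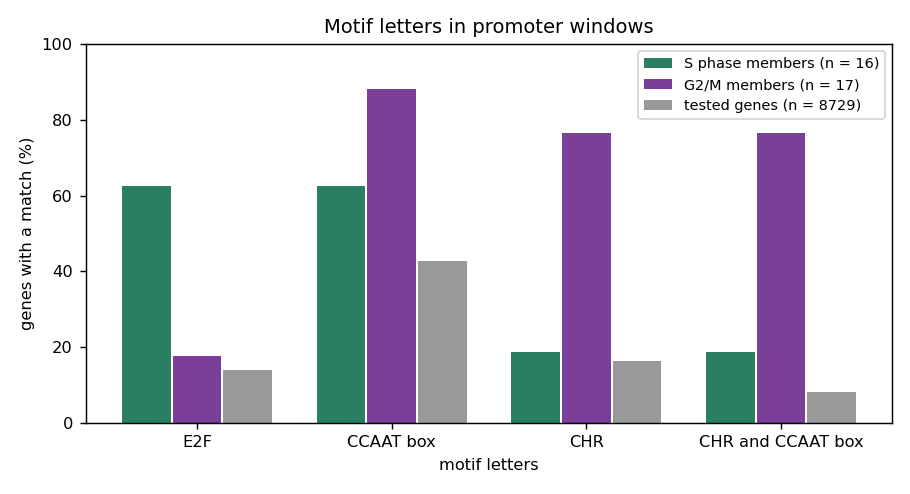
Share of genes (%) whose promoter window holds each motif's letters, for S phase members (n = 16), G2/M members (n = 17) and all tested genes with a window (n = 8729). E2F letters are most frequent in the S phase bars (62.5%), and CHR letters in the G2/M bars (76.5%).

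Libraries held 7956528 to 9289543 counted reads in SHP-KO and 11265437 to 13511800 in WT. Nr0b2 had 1, 0 and 0 counts in SHP-KO replicates 1 to 3, against 31, 14 and 23 in WT replicates 1 to 3, so the libraries matched their labels. Libraries correlated across genes at 0.991 to 0.995 within a genotype and 0.928 to 0.929 between genotypes, values over genes that are not independent replicates. Within a genotype, counts of library pairs differed by a chi-square of 1.33 to 1.97 per degree of freedom, above the value of 1 that sampling alone gives on average. All 14 epithelial markers, among them Epcam, Cdh1 and Vil1, passed the count filter in this tissue. Levels are given as CPM, read counts scaled to library size with TMM factors, and the SDs are over the 3 libraries of a genotype.

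Cell cycle genes were lower in SHP-KO intestine, with 3 exceptions that went up. Of 39 members that passed edgeR's filter on low counts, 33 fell and 3 rose at an adjusted p under 0.05, and 3 did not pass, whereas 70.6% of all 12106 tested genes passed, 35.4% lower and 35.2% higher. In 33 members every SHP-KO library lay below every WT library and in 3 above, while the libraries of 72% of tested genes did not overlap. Among the members, 27 fell by more than 2-fold, a change that 8.15% of tested genes showed. The median log2 fold change over the tested members was -1.52, against -0.01 over all tested genes. Summed over the 40 members, the level was 210.6, 213.3 and 202.0 CPM in SHP-KO libraries and 422.1, 417.1 and 421.4 CPM in WT libraries. The SHP-KO libraries were thus all below the WT libraries, and the spread within a genotype was small beside the gap. In bulk tissue, fewer dividing cells and less RNA per dividing cell cannot be told apart.

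**Figure D2:**
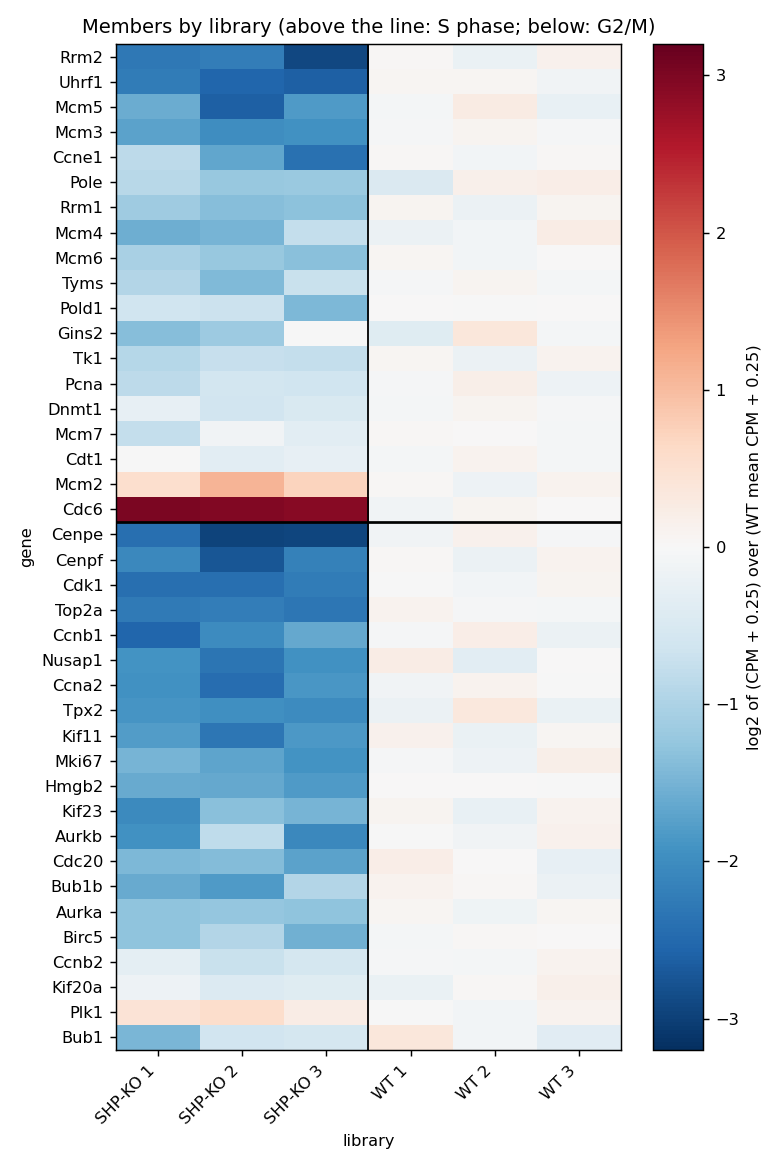
Each row is a member and each column a library; colour gives the log2 ratio of its CPM to the WT mean, both with 0.25 CPM added. The SHP-KO columns are blue in nearly every row, with Cdc6, Mcm2 and Plk1 red, and the 3 libraries of a genotype resemble each other.

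The G2/M class and the S phase class both fell, and the G2/M class had the lower median. In the G2/M class 18 of 20 tested members fell, Plk1 rose and Kif20a did not pass, the median log2 fold change being -1.72. In the S phase class 15 of 19 fell, Cdc6 and Mcm2 rose, and Cdt1 and Gins2 did not pass, with a median of -1.07. Summed CPM of the G2/M class was 74.3 ± 3.69 in SHP-KO and 214.4 ± 5.32 in WT (SD, n = 3 each), 2.89-fold lower in SHP-KO. Summed CPM of the S phase class was 134.4 ± 2.30 in SHP-KO and 205.7 ± 2.74 in WT (SD, n = 3 each), 1.53-fold lower.

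The balance between the classes therefore differed between genotypes within each library. The ratio of summed S phase to summed G2/M CPM was 1.77, 1.78 and 1.89 in SHP-KO libraries and 0.945, 1.00 and 0.933 in WT libraries, with no overlap. Cdc6 alone supplied part of this ratio, and with it left out the ratio was 1.51 ± 0.0592 in SHP-KO and 0.948 ± 0.0359 in WT (SD, n = 3 each). Between the medians the difference was 0.65 on the log2 scale, and it was 0.45 without SHP-KO replicate 3 and 0.51 without the 6 members whose exons overlap another gene. No test was made of the difference between the classes, because the genes were chosen with results known.

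**Figure D3:**
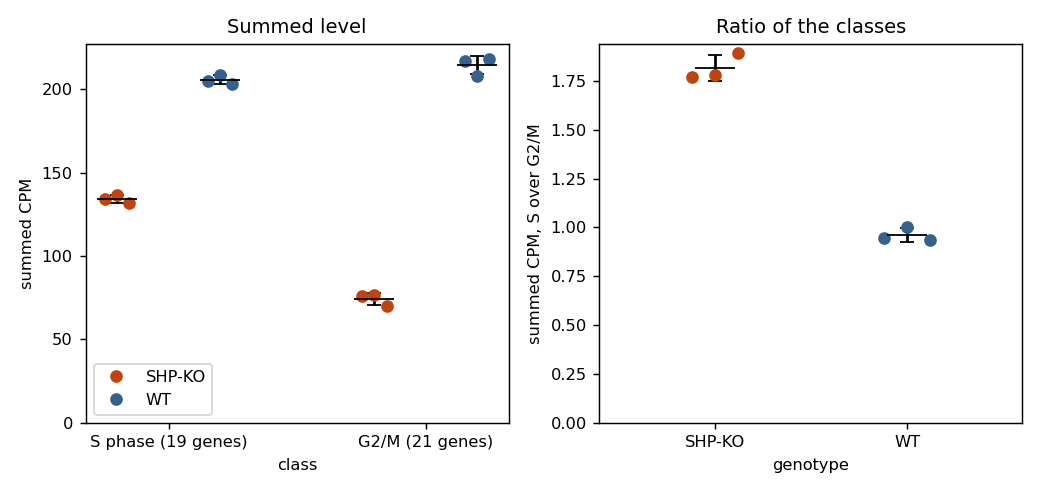
Left, summed CPM of the S phase and G2/M classes in each library (points), with mean and SD bars over 3 libraries; right, the ratio of the sums. SHP-KO points lie below WT points in both classes, and the ratio is 1.77 to 1.89 in SHP-KO against 0.933 to 1.00 in WT.

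Among the mitotic cyclins and kinases, 6 of 7 fell. Cdk1, the kinase that drives entry into mitosis, was at 2.42, 2.41 and 2.75 CPM in SHP-KO libraries and at 13.7, 13.1 and 14.8 CPM in WT libraries. It was thus 5.48-fold lower (log2 -2.45, SE 0.16, adjusted p 1.8e-24, edgeR), with a wide gap between the groups. Its partners did not move by like amounts. Ccnb1, which encodes cyclin B1, was at 0.652 ± 0.267 CPM in SHP-KO and 3.39 ± 0.507 CPM in WT (SD, n = 3 each) and fell 5.03-fold, whereas Ccnb2, encoding cyclin B2, was at 5.68 ± 0.862 and 8.23 ± 0.604 CPM and fell 1.46-fold, a call lost in edgeR's exact test when the coefficient of variation (CV) was set to 0.2 (adjusted p 0.13). Ccna2, which encodes cyclin A2 and serves S phase as well as G2, fell 4.44-fold. Aurka and Aurkb, the Aurora kinases of spindle poles and of the chromosomal passenger complex, fell 2.55-fold and 3.03-fold. Aurkb scattered among SHP-KO libraries at 1.02, 2.52 and 0.917 CPM, all below the lowest WT library at 4.21 CPM, and its log2 fold change was -1.60 with all libraries and -2.25 without SHP-KO replicate 2.

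Plk1, the polo-like kinase that acts from mitotic entry to cytokinesis, went the other way. It was at 12.1, 13.2 and 10.4 CPM in SHP-KO libraries and 8.69, 8.24 and 9.60 CPM in WT libraries, so the groups did not overlap but lay close. The rise was 1.35-fold (log2 0.43, SE 0.12, adjusted p 0.0017, edgeR) and did not pass edgeR's exact test at that CV (adjusted p 0.21). In the count files Plk1 (chr7:129302951-129313389, mm9, plus strand, 10 exon intervals) ends 17 bases before the minus-strand gene Ern2, which encodes an endoplasmic reticulum stress sensor. Ern2 was at 7.13, 6.34 and 5.84 CPM in SHP-KO libraries and at 1.10, 1.32 and 1.28 CPM in WT libraries. Counting ignored strand, and the part of reads from Ern2 in the Plk1 count was not tested.

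Kinetochore and checkpoint genes included the deepest falls. Cenpe, a kinesin that carries chromosomes to the spindle equator, was at 0.764, 0.438 and 0.458 CPM in SHP-KO libraries and at 4.75, 5.70 and 4.99 CPM in WT libraries. It fell 9.23-fold (log2 -3.21, SE 0.31), resting on 14 counts in SHP-KO and 196 in WT. Cenpf, a kinetochore protein, fell 7.32-fold, with 10 counts in SHP-KO and 112 in WT. Falls of 2.38-fold to 3.00-fold were seen for Bub1b, which encodes the checkpoint kinase BubR1, Cdc20, the activator of the anaphase-promoting complex, and Birc5, which encodes survivin. Bub1, another checkpoint kinase, was removed by the filter with 14 counts in SHP-KO and 44 in WT. Its libraries were at 0.255, 0.656 and 0.688 CPM in SHP-KO and at 1.53, 1.05 and 0.831 CPM in WT, and without the filter its log2 fold change was -1.12 (adjusted p 0.031, edgeR).

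Spindle motors and their partners fell together, apart from Kif20a. Kif11, the kinesin that pushes spindle poles apart, fell 4.31-fold. Tpx2 and Nusap1, which organise spindle microtubules, fell 4.30-fold and 4.77-fold, and Kif23, a kinesin of the central spindle, fell 3.14-fold. Kif20a, a kinesin of cytokinesis, was at 2.42, 1.97 and 2.06 CPM in SHP-KO libraries and at 2.34, 2.81 and 3.10 CPM in WT libraries, which overlapped, and it did not pass (log2 -0.36, SE 0.26, adjusted p 0.21, edgeR). Exons of Kif20a overlap those of Brd8 and Cdc23 by 1302 bases in the count files. Brd8 averaged 36.9 CPM in SHP-KO and 31.8 CPM in WT and Cdc23 6.75 CPM and 6.98 CPM, and their part in the Kif20a count was not tested.

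The 3 chromatin members fell with small spread. Top2a, the topoisomerase that untangles replicated chromosomes, was at 3.82, 3.94 and 3.67 CPM in SHP-KO libraries and 20.8, 18.7 and 18.5 CPM in WT libraries, 5.07-fold lower. Mki67, which encodes the proliferation antigen Ki-67, was at 8.27, 7.22 and 6.07 CPM in SHP-KO libraries and at 23.1, 21.1 and 27.0 CPM in WT libraries, 3.32-fold lower. Hmgb2, a chromatin protein of dividing cells, was at 12.3 ± 0.938 CPM in SHP-KO and 40.1 ± 0.321 CPM in WT (SD, n = 3 each). Its WT libraries differed little, at 40.4, 40.2 and 39.8 CPM.

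**Figure D4:**
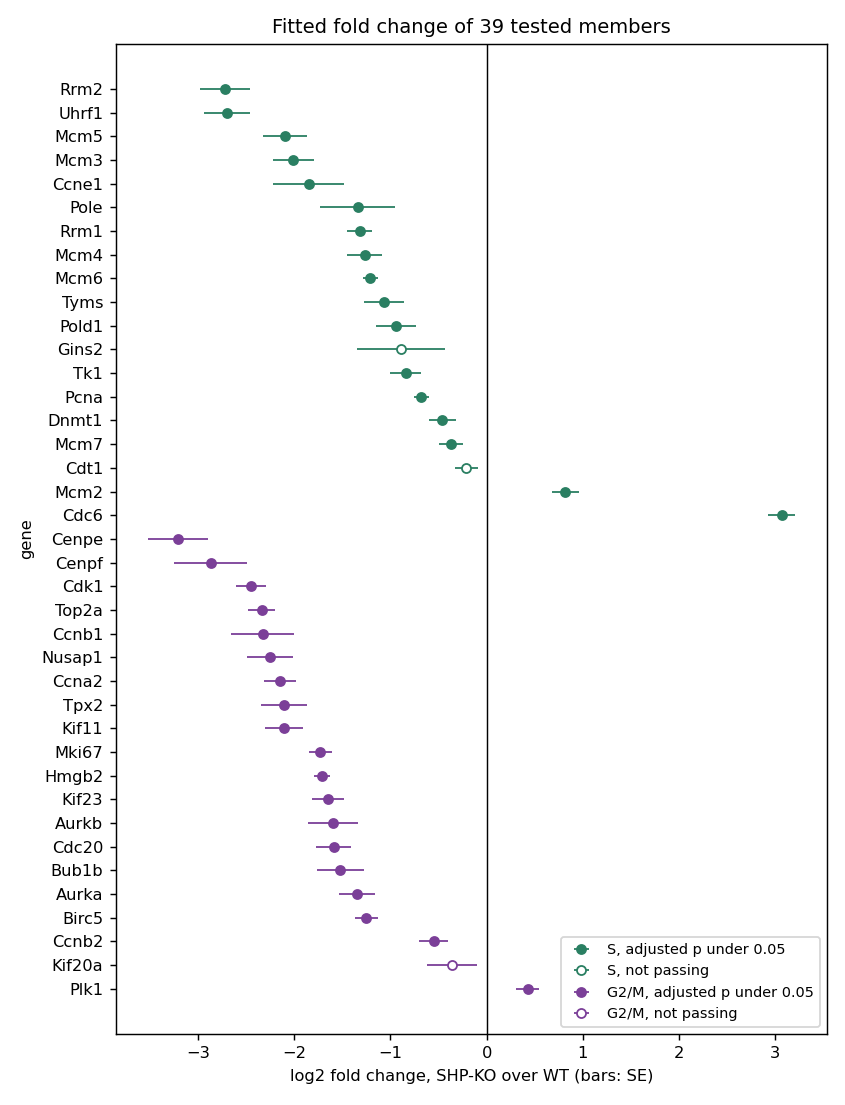
Fitted log2 fold change of SHP-KO over WT (x axis) with its SE for the 39 tested members, S phase above and G2/M below, filled where the adjusted p was under 0.05. Most points lie left of 0, Cenpe at -3.21 lies farthest left and Cdc6 at 3.07 farthest right.

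In the S phase class, genes that license replication origins moved in opposite directions. Cdc6, which with Cdt1 loads the Mcm helicase onto origins, was at 22.8, 22.1 and 21.3 CPM in SHP-KO libraries and at 2.41, 2.81 and 2.65 CPM in WT libraries. It was 8.41-fold higher (log2 3.07, SE 0.14, adjusted p 1.1e-35, edgeR), and no 2 libraries of different genotypes came near each other. The rise stayed between 3.01 and 3.11 on the log2 scale without any 1 library. Cdt1 was at 13.1, 10.3 and 10.9 CPM in SHP-KO libraries and at 12.7, 14.3 and 12.5 CPM in WT libraries, which overlapped, and did not pass (log2 -0.21, SE 0.12, adjusted p 0.099, edgeR). Without SHP-KO replicate 1 the log2 fold change of Cdt1 was -0.32 and passed (adjusted p 0.028, edgeR). Aprt, 1506 bases from Cdt1, averaged 328.4 CPM in SHP-KO and 169.3 CPM in WT, and its part in the Cdt1 count was not tested.

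Cdc6 lies on chromosome 11 from 98769203 to 98785256 (mm9, plus strand, 13 exon intervals) with no exon shared with another gene. Neither of its neighbours passed, Wipf2 on one side being at log2 -0.03 and Rara on the other at -0.04. Top2a, which fell, lies 69004 bases further along the same chromosome, from 98854261 to 98885503 (mm9, minus strand, 36 exon intervals).

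The 6 subunits of the Mcm helicase, which form a ring of 1 copy each, did not move as 1 set. Mcm3, Mcm4 and Mcm5 fell 4.02-fold, 2.42-fold and 4.30-fold. Mcm6 was at 21.5, 19.3 and 17.5 CPM in SHP-KO libraries and at 46.7, 42.2 and 45.4 CPM in WT libraries, 2.31-fold lower. Mcm7 fell 1.29-fold (log2 -0.37, SE 0.12, adjusted p 0.0050, edgeR), which was lost without SHP-KO replicate 1 (log2 -0.23, adjusted p 0.11) and in edgeR's exact test at a CV of 0.2 (adjusted p 0.27). Mcm2 rose, at 9.67, 14.4 and 11.0 CPM in SHP-KO libraries and 6.79, 5.87 and 7.26 CPM in WT libraries. Its change of 1.77-fold (log2 0.82, SE 0.14, adjusted p 1.6e-07, edgeR) ranged from 0.63 to 0.93 on the log2 scale without any 1 library. Tpra1, 3470 bases from Mcm2, rose too (log2 0.79, adjusted p 7.6e-22, edgeR). Podxl2, on the other side, averaged 1.27 CPM in SHP-KO and 0.204 CPM in WT and was removed by the filter. The part of either neighbour in the Mcm2 count was not tested.

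Per kilobase of exon, the subunits differed in level within each genotype. In SHP-KO the level was 6.70 CPM per kb for Mcm6, 4.17 for Mcm7 and 3.47 for Mcm2, and 0.959 or less for Mcm3, Mcm4 and Mcm5. In WT it was 15.4 CPM per kb for Mcm6 and 5.46 for Mcm7, and between 1.93 and 2.51 for the other 4. The transcripts of Mcm2, Mcm3, Mcm4 and Mcm5 were thus at similar levels in WT and apart in SHP-KO. Mcm6 lies 3272 bases from Lct, which encodes the brush border lactase and was chosen for mention after its values were seen. Lct averaged 2335 CPM in SHP-KO and 440.9 CPM in WT, a rise of 5.30-fold beside the fall of Mcm6.

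**Figure D5:**
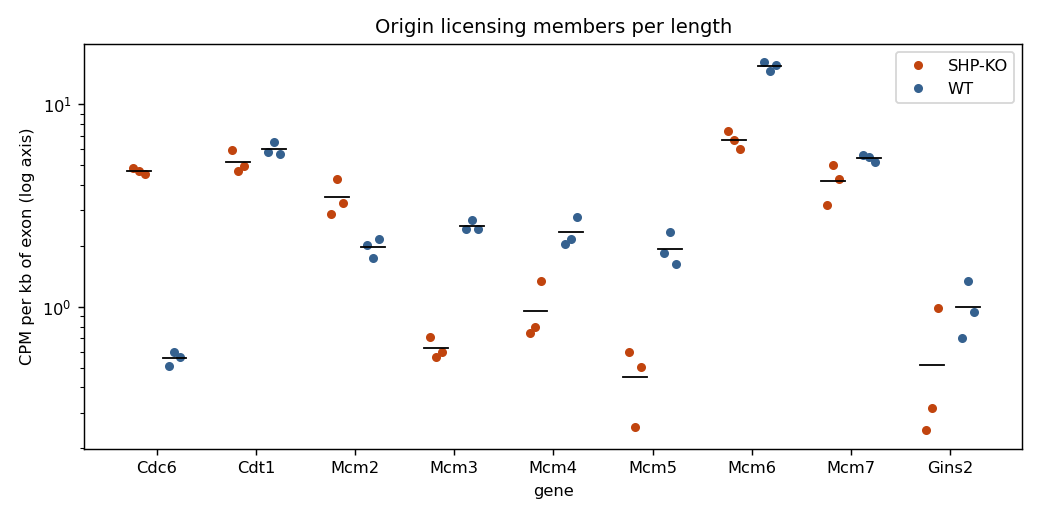
CPM per kb of exon on a log axis for the origin licensing members, with each library as a point (SHP-KO left, WT right) and the group mean as a line. Cdc6 and Mcm2 are higher in SHP-KO, Mcm3 to Mcm6 lower, and Cdt1 and Gins2 overlap.

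Gins2, a subunit of the GINS complex that activates the loaded helicase, was near the limit of this depth. It was at 0.255, 0.328 and 1.03 CPM in SHP-KO libraries and 0.730, 1.40 and 0.983 CPM in WT libraries, with 14 and 39 counts in all. It did not pass (log2 -0.89, SE 0.46, adjusted p 0.074, edgeR), but passed without SHP-KO replicate 3 (log2 -1.76, adjusted p 0.0093, edgeR).

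Genes for DNA synthesis and its supply of nucleotides all fell. Pcna, the sliding clamp, was at 23.5, 27.8 and 26.9 CPM in SHP-KO libraries and at 40.8, 47.8 and 37.6 CPM in WT libraries, 1.6-fold lower. Pold1 and Pole, the catalytic subunits of the main replicative polymerases, fell 1.92-fold and 2.53-fold, Pole from few reads (16 counts in SHP-KO and 61 in WT). Pold1 lies 672 bases from the B cell marker Spib, which averaged 5.62 CPM in SHP-KO and 27.8 CPM in WT. The part of Spib in the Pold1 count was not tested. Rrm2, the small subunit of ribonucleotide reductase that is made in S phase, was at 1.02, 1.09 and 0.573 CPM in SHP-KO libraries and at 6.06, 5.09 and 6.58 CPM in WT libraries. That is a fall of 6.57-fold, against 2.49-fold for Rrm1, the large subunit. Tyms and Tk1, which make thymidylate, fell 2.10-fold and 1.79-fold.

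The remaining S phase members fell by unequal amounts. Uhrf1, which recognises newly replicated methylated DNA, was at 1.27, 0.984 and 0.917 CPM in SHP-KO libraries and 7.16, 7.19 and 6.35 CPM in WT libraries, 6.5-fold lower. Dnmt1, the methyltransferase that Uhrf1 brings to that DNA, fell 1.37-fold, a call lost in edgeR's exact test at a CV of 0.2 (adjusted p 0.20). Ccne1, the cyclin E1 gene of the G1 to S step, was at 1.15, 0.547 and 0.229 CPM in SHP-KO libraries and at 2.34, 2.10 and 2.34 CPM in WT libraries, 3.60-fold lower. Its log2 fold change, on 16 counts in SHP-KO, was -1.85 with all libraries and -2.50 without SHP-KO replicate 1.

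The 2 members with the highest levels per length were the same in both genotypes. Pcna led, at 20.7 CPM per kb in SHP-KO and 33.4 in WT, with Mcm6 next in both. In SHP-KO, Plk1, Cdt1 and Cdc6 came after them at 5.41, 5.21 and 4.69 CPM per kb, and in WT Hmgb2, Tk1 and Cdt1 at 14.9, 6.12 and 6.02. Across the 39 tested members the log2 fold change had a Spearman rho of 0.18 with the WT level per kb and -0.24 with exon length, descriptions over genes that share libraries. The members lie on 17 chromosomes, and Tk1 and Birc5, both lower, are 23222 bases apart on chromosome 11. Exons of 6 members overlap another gene in the count files, and without strand, reads within the shared bases cannot be assigned to one gene: besides Kif20a they are Gins2 (118 bases shared with Gse1, log2 0.23), Tk1 (88 with Afmid, 1.04), Ccna2 (378 with Exosc9, -1.03), Cdc20 (16 with Elovl1, -0.17) and Nusap1 (208 with Oip5, -1.96). Exon lengths of these 6 genes run from 1038 to 3905 bases, so most of each is unshared. The other 34 members had the same median, -1.52, with 29 lower and 3 higher of 33 tested.

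Genes of the same machinery outside the 40 were read from lists chosen by role. Of 52 tested further mitosis genes 49 fell and none rose, where 35.4% of all tested genes were lower and 35.2% higher. Their median was -1.65 on the log2 scale, against -0.01 over all tested genes. Pttg1, Kif4 and Cdc25b did not pass, at log2 0.07, -0.30 and -0.23. The deepest falls were Cdca2, a chromosome-bound phosphatase adaptor, Hmmr, a spindle protein, and Ndc80, of the outer kinetochore, at log2 -3.27, -3.22 and -3.18. Hmmr had 5 counts in SHP-KO and 73 in WT.

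Of 44 tested further replication genes 28 fell, 4 rose and 12 did not pass, and the median was -0.63 on the log2 scale. The 32 called are a share near the 70.6% of all tested genes, with more of them lower than the 35.4% over all genes. Asf1b, a histone chaperone, and Dut, which removes dUTP, fell by 2.11 and 2.09 on the log2 scale. Mcm10, a replication factor that helps activate origins and is not part of the Mcm ring, was at 78.9, 80.5 and 79.3 CPM in SHP-KO libraries and at 15.8, 18 and 16.4 CPM in WT libraries. Mcm10 rose 4.77-fold (log2 2.25, SE 0.069, adjusted p 9.2e-48, edgeR), the largest rise of the list. Pole3, Orc3 and Pold3 rose by log2 0.73, 0.38 and 0.36.

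Upstream regulators went both ways. Of 26 tested G1 drivers and transcription factors 16 fell, 4 rose and 6 did not pass, and the median was -0.56 on the log2 scale. The 20 called are a share near the 70.6% of all tested genes. Cdk6, a G1 kinase, E2f8, a repressive E2F, and Wee1, which holds Cdk1 inactive, fell by 2.49, 2.04 and 1.83 on the log2 scale. E2f2, an activating E2F, rose 2.22-fold, at 20.5 ± 0.539 CPM in SHP-KO and 9.18 ± 0.920 CPM in WT (SD, n = 3 each), and E2f6 and E2f3 rose by log2 1.07 and 0.58. E2f1, another activating E2F, fell (log2 -1.35, adjusted p 0.0011, edgeR). Foxm1 and the MuvB genes Lin9, Lin54 and Lin52 fell, at log2 -1.63, -1.32, -1.01 and -0.51. Mybl2, which encodes B-Myb, did not pass, at log2 0.22.

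Inhibitors of the cycle were mostly lower as well, in a list that also holds Mdm2, which acts against the inhibitor p53. Of 18 tested, 12 fell, 3 rose and 3 did not pass, and their median was -0.61 on the log2 scale, where 35.4% of all tested genes fell and 35.2% rose. Gadd45g, Btg1 and Btg2, which restrain growth, fell by 1.57, 1.17 and 1.10 on the log2 scale, while Gadd45b, Mdm2 and Fzr1 rose by log2 1.54, 0.35 and 0.15. Cdkn2a had no counts in SHP-KO and 18 in WT and was not tested. Cdkn1a, the p21 inhibitor of differentiated villus cells, chosen for mention after its values were seen, fell 1.6-fold, at 375.4 ± 0.683 CPM in SHP-KO and 599.5 ± 3.28 CPM in WT (SD, n = 3 each).

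Markers of several cell types moved in the same libraries, in which 35.4% of all tested genes were lower and 35.2% higher. All 12 B cell markers fell, their summed level being 8.42 to 9.85 CPM in SHP-KO libraries and 121.8 to 132.4 CPM in WT libraries, and Cr2, Fcer2a and Faim3 had no counts in SHP-KO. Of 8 tested germinal centre markers 7 fell and Bcl6 rose, the summed level of all 9 being 26.1 to 30.4 CPM in SHP-KO and 44.4 to 48.1 CPM in WT. Gcet2, a germinal centre B cell gene, had 2 counts in SHP-KO and 74 in WT. All 10 smooth muscle markers rose, with summed levels of 1205 to 1242 CPM in SHP-KO and 345.7 to 348.5 CPM in WT. The part of these cell types in the falls of the cell cycle genes was not tested.

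The summed levels of epithelial and crypt markers moved less. Among all tested genes 35.4% were lower and 35.2% higher. The summed level of 14 epithelial markers was 26009 to 26067 CPM in SHP-KO and 27177 to 27322 CPM in WT, with 9 lower, 4 higher and 1 not passing, and none over 2-fold lower. Of 13 tested crypt and stem cell markers 7 fell, 2 rose and 4 did not pass, with summed levels of all 14 at 119.2 to 123.8 CPM in SHP-KO and 157.0 to 171.9 CPM in WT. The 9 called of these 13 are at the 70.6% of all tested genes. Olfm4, of crypt base columnar cells, fell by 1.62 on the log2 scale. The other falls were Ascl2 and Sox9 at log2 -1.68 and -1.49, and Slc12a2, Prom1, Axin2 and Cd44 at -0.76, -0.73, -0.56 and -0.51. Axin2 was the most abundant, averaging 49.6 CPM in SHP-KO and 73 CPM in WT. Smoc2, of the same cells as Olfm4, rose by log2 0.65. Lgr5, the stem cell receptor, chosen for mention after its values were seen, rose by log2 2.04 from 34 counts in SHP-KO and 12 in WT. With each library scaled to its epithelial markers in place of TMM, 33 members again fell and 3 rose, with medians of -1.0 for the S phase class and -1.65 for the G2/M class. Segment markers differed too: of 8 ileum markers 6 fell and 2 rose, and all 7 proximal markers rose. Summed levels were 3144 to 3213 CPM in SHP-KO and 17659 to 18037 CPM in WT for ileum markers, 5.60-fold lower, and 10380 to 10604 CPM in SHP-KO and 1874 to 1897 CPM in WT for proximal markers, 5.59-fold higher. Most of the ileum sum in WT was Fabp6, which averaged 144.5 CPM in SHP-KO and 10792 CPM in WT. The ileum markers that rose were Slc10a2 and Pyy. The proportion of each segment in a sample is not stated, and its part in the falls of the cell cycle genes was not tested.

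Markers of other cell types differed between the genotypes as well, where 35.4% of all tested genes were lower and 35.2% higher. Of 9 tested Paneth and goblet markers 6 rose and 2 fell, with summed levels of 7106 to 7271 CPM in SHP-KO and 2451 to 2517 CPM in WT. Fibroblast markers rose in 8 of 9 tested, at 95.5 to 96.1 CPM in SHP-KO and 39 to 42.2 CPM in WT, and enteric nerve markers in 5 of 6, at 40.1 to 42.1 CPM in SHP-KO and 14.6 to 17.2 CPM in WT. Myeloid markers summed to 46.7 to 49.5 CPM in SHP-KO and 96.4 to 99.3 CPM in WT. Of 7 tested, 2 were lower and 3 higher. Most of the WT sum was Lyz2, which averaged 12.3 CPM in SHP-KO and 72.4 CPM in WT. Mrc1 also fell, while Itgam, Cd68 and Cx3cr1 rose, so the sum does not describe the myeloid markers as a set. T cell markers summed to 40.6 to 45.6 CPM in SHP-KO and 26 to 28.6 CPM in WT. Of 9 tested T cell markers 6 were higher and 1 lower. The part of these cell types was not tested either.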

How the data were processed

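RNA-seq of 3 SHP-KO and 3 WT intestinal samples was analysed. Each deposited file holds counts of reads per gene, whole numbers made by the authors with featureCounts 1.5.2, unstranded and summed over exons, per the file headers. STAR 2.6.0c, Trimmomatic 0.38, FastQC 0.11.5 and bcl2fastq 2.17.1.14 are listed with mm9, per the submitters' processing notes. The authors' deposited comparison table gives log2 fold changes and p-values. There, 30 of 40 members in the authors' deposited results were lower and 2 higher at an adjusted p under 0.05. Member log2 fold changes from edgeR's exact test at an assumed CV of 0.2 differed from these by at most 0.018. That test also called 30 members lower and 2 higher, so it is not a check separate from the authors' results.

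Counts passed edgeR's filterByExpr (minimum count 10), received TMM factors and went into edgeR's quasi-likelihood fit (edgeR 4.0.16, R 4.3.3), with Benjamini-Hochberg adjustment over 12106 genes and a threshold of 0.05. SEs were derived from that fit. SEs and p-values reflect the spread between libraries, which exceeded counting error. The exact test with an assumed CV of 0.2, DESeq2 1.42.0, limma-voom (limma 3.58.1), other scalings and filters, a replicate block and leaving out each library were the alternatives.

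Members, phase classes and lists were chosen with earlier results of these data known. All 40 members are named. From the pathway lists the 3 deepest falls and 3 largest rises with a mean of at least 1 CPM are named, except 1 gene that is not reported here, and from marker lists the leading genes and genes at 0; the other names were chosen after their values were seen. Exon overlaps were read from the count files (mm9). Promoter windows were from RefSeq (GRCm38.p6), and no coordinate was carried between builds. Figures were drawn with matplotlib 3.10.9.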

Additional observations from a re-analysis of the deposited data

How the results depend on the processing

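Of 621 member values under the alternatives, 612 kept their direction and their side of the threshold, 5 lost the call, 4 gained it and none changed sign. The calls lost were those of Mcm7, Dnmt1, Ccnb2 and Plk1 with the assumed CV of 0.2, and of Mcm7 without SHP-KO replicate 1. Cdt1 and Gins2 gained the call in some settings. The exact test with the assumed CV of 0.2 called 4041 genes in place of 8543 (15.5% of genes lower), 30 members lower and 2 higher in place of 33 and 3, and 5 pathway list genes higher in place of 11. The G2/M median was -1.65 in place of -1.72 with epithelial scaling, and -1.65 without Mki67, Hmgb2, Ccna2, Ccne1 and Dnmt1. Without the members whose exons overlap another gene, a setting chosen after seeing the data, the S phase median was -1.21 in place of -1.07 and the difference of medians 0.51 in place of 0.65; the cause was not tested. Without any 1 library the S phase median ranged from -1.25 to -1.08, the G2/M median from -1.82 to -1.71 and their difference from 0.45 to 0.74.

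The labels do not say whether the replicate numbers pair the samples. Deviations of same-numbered libraries correlated at 0.0185, 0.0213 and -0.00643, and 4 of 6 libraries correlated best with their own number. So few libraries cannot show or exclude a pairing. With the replicate number as a block 8573 genes were called in place of 8543, with 33 members lower and 3 higher as before. Members with under 60 counts in all, Gins2 (53) and Bub1 (58), are limited by depth.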
